A study of Mus musculus with 2 samples.

Results

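Klrb1c+ T cells of the mouse thymus were described in 2 single-cell RNA libraries of YFP+ cells, 1 of cKO mice (Tbx21Cre Ets1F/F Rosa26-YFP+) and 1 of control mice (Tbx21Cre Rosa26-YFP+). A barcode was a member when it held at least 500 genes and at most 10% mitochondrial UMIs, at least 1 UMI of Cd3d, Cd3e and Cd3g together, and at least 2 UMIs of Klrb1c. Members also held no UMI of Ncr1, Cd8b1, Trav11 or Rag1 and fewer than 3 UMIs of Ifit1, Ifit3 and Isg15 together. The rule found 891 members, 49 in the cKO library and 842 in the control library, among 13298 cells that passed the first filters and 21308 deposited barcodes. The members were thus chosen by measured UMIs of Klrb1c and the other gate genes, and the levels of these genes in them are a description.

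Both groups carry Tbx21Cre and the Rosa26-YFP reporter, and floxed Ets1 is added in the cKO group. YFP then marks any cell with a history of Cre made under Tbx21, not one cell type, and the cells were sorted as YFP+, per the labels. Each library holds cells of 2 mice whose cells carry no mark of origin, so n = 1 library per genotype: no test was possible, and a difference between the genotypes cannot be told apart from a difference between libraries. Which exons of Ets1 are floxed is not given in the sources used here.

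Klrb1c encodes NK1.1, a C-type lectin of the NKR-P1 family that natural killer (NK) cells carry and that a set of T cells gains late in thymic maturation. Among thymic T cells it is best known from the T-bet dependent branch of invariant natural killer T (iNKT) cells, which see lipids on CD1d, depend on IL-15 through Il2rb and share much of the receptor and cytotoxic equipment of NK cells. T-bet, the product of Tbx21, drives this branch, and Ets1 is a transcription factor of the ETS family, whose members bind DNA around a GGAA core.

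The stretches just before the RefSeq starts of Klrb1c and of 2 Ly49 receptor genes are printed because Klrb1c defines the cells, while Klra9 and Klra3 are the marker receptors that were lower in the cKO members. Each line gives 250 bases upstream of the RefSeq start on GRCm38.p6, read 5′ to 3′ on the gene's own minus strand of chromosome 6, with GGAA, or its reverse complement TTCC, in capitals.
Klrb1c, chr6:128788642-128788891: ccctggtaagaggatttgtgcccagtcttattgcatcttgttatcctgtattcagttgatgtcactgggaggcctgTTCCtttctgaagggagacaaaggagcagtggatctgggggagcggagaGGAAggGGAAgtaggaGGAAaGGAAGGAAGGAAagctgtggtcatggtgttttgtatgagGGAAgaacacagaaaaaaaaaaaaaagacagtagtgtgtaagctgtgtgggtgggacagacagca
Klra9, chr6:130193113-130193362: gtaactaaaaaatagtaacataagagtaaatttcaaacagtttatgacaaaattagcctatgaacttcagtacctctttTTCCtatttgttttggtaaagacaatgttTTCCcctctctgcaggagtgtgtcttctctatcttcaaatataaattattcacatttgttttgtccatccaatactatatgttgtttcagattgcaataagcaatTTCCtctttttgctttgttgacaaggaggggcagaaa
Klra3, chr6:130337627-130337876: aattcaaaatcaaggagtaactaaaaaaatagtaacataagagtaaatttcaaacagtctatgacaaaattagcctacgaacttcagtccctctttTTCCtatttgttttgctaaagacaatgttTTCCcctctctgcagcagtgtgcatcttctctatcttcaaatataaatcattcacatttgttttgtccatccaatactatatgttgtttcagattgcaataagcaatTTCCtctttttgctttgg
The Klrb1c window held 8 matches, a number that 1.45% of all 32851 promoter windows of that length reach, and the Klra9 and Klra3 windows held 3 each. Of all windows, 93.4% hold at least 1 match and the median is 3. The matches are a description of letters and not of binding. Annotations place these starts differently: Klrb1c reaches position 128789215 in the mm10 gene annotation, so its window lies inside the gene as annotated there, and Klra3, on the minus strand, begins at 130337574 there and not at the RefSeq start. The Klra9 and Klra3 windows were 97.0% identical over 231 aligned bases, against 56.5% for Klra9 and Klrb1c over 184 aligned bases.

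The same closeness holds in the transcripts and limits what a 3′ count can separate. Of the 50-base stretches in the last 500 bases of the transcript, Klra9 shared 44.8% and Klra3 shared 42.4% with other Ly49 genes or pseudogenes, and Klra7 shared 27.5% with a pseudogene. Klra1 shared 5.77%, and Klra5 and Klrb1c shared none. Counts of Klra9, Klra3 and Klra7 are therefore uncertain as to the exact gene.

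The cKO library held 39979742 UMIs in all and the control library 35210431 UMIs. Cells that passed the filters had a median of 5533 UMIs in the cKO library and 2666 UMIs in the control library. Members were deep cells in both, with medians of 7338 UMIs in the cKO library and 7045 UMIs in the control library. CD3+ cells without a Klrb1c UMI that passed the same other gates, called Klrb1c-negative here, had medians of 6543 UMIs (2146 cKO cells) and 1658 UMIs (3329 control cells). Every comparison was therefore repeated in cells of 3000 to 8000 UMIs, called depth-matched below, where member medians were 6463 UMIs in 31 cKO cells and 6449 UMIs in 450 control cells and Klrb1c-negative medians were 6027 UMIs in 1245 cKO cells and 5749 UMIs in 681 control cells. The libraries shared 29 barcodes, of which none belonged to a member. Doublets were not removed. Levels below are CPM, the summed UMIs of a gene per 1000000 UMIs of the population, and ranges in parentheses are exact 95% intervals for counting error alone.

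Klrb1c+ T cells made up 1.36% (1.01 to 1.80) of 3597 CD3+ cells in the cKO library and 11.8% (11 to 12.6) of 7143 CD3+ cells in the control library. Of the cells that passed every gate but the one on Klrb1c, they were 2.04% (1.51 to 2.68) of 2405 cKO cells and 16.1% (15.1 to 17.1) of 5232 control cells. The share of members climbed with depth in the control library and stayed low at every depth in the cKO library. Among cells of 5000 to 8000 UMIs it was 2.29% (1.48 to 3.36) of 1094 cKO cells and 33.7% (30.9 to 36.5) of 1137 control cells, and among cells of 12000 UMIs or more it was 2.84% (0.929 to 6.50) of 176 cKO cells and 51.7% (43.4 to 59.9) of 149 control cells. With each cell thinned to 1500 UMIs, at least 1 Klrb1c UMI was kept in 2.96% (2.30 to 3.73) of 2300 cKO cells and 20.7% (19.3 to 22.1) of 3478 control cells.

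**Figure D1:**
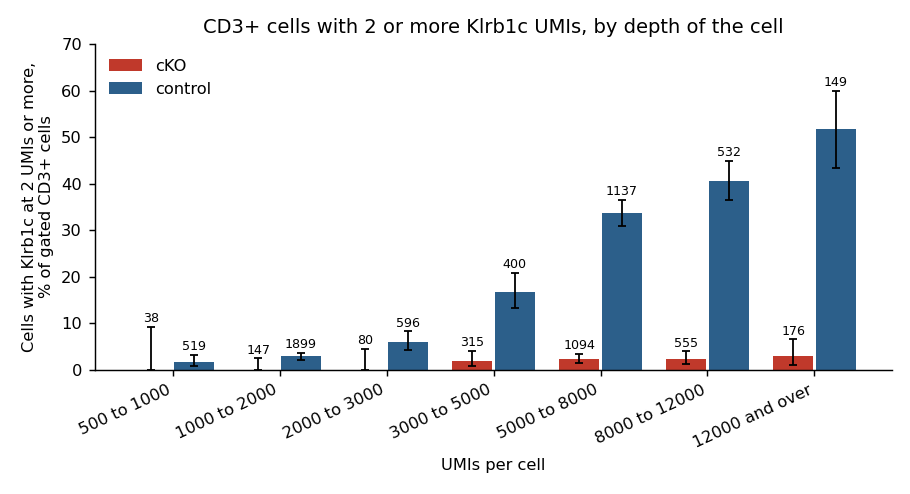
Share of Klrb1c+ members among the cells that passed every other gate (y axis, percent) by the total UMIs of the cell (x axis, bins), in the cKO library and the control library, with exact 95% intervals and the number of cells in the bin above each bar. Control shares climb from 1.73% of cells of 500 to 1000 UMIs to 51.7% of cells of 12000 UMIs or more, and no cKO bin passes 2.84%.

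The gates removed different parts of the CD3+ cells with at least 2 Klrb1c UMIs, of which there were 91 in the cKO library and 1159 in the control library. Ncr1, an activating receptor of NK cells, removed 35 cKO and 77 control cells when each gate was applied alone, and the interferon genes removed 4 cKO and 158 control cells. Trav11, which marks the invariant receptor chain, removed 2 cKO and 61 control cells. Just inside the threshold, cells with exactly 2 Klrb1c UMIs were 34 of the 49 cKO members and 426 of the 842 control members. Just outside it, 210 cKO and 1061 control cells held 1 Klrb1c UMI. The highest Klrb1c count was 7 in a cKO member and 9 in a control member.

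Klrb1c reached 321 CPM (268 to 383) in the cKO members and 396 CPM (380 to 412) in the control members. B cells, which should lack it, held 3.14 CPM in the cKO library and 6.02 CPM in the control library, at median depths of 7829 and 3958 UMIs. The gate did not use Trac, the constant part of the T cell receptor alpha chain. It had a UMI in 41 of 49 cKO members and 805 of 842 control members, so not every member showed it. In the Klrb1c-negative cells it had a UMI in 88.7% of the cKO cells and 73.6% of the control cells. Among the 18 cKO members with Eomes or Trdc described further on, 10 had a Trac UMI. The iNKT part of the label could not be checked with Trav11, which the gate sets to 0, and lipid antigen binding was not measured. Beta chain segments known from mouse iNKT cells, of the Trbv13, Trbv29 and Trbv1 families, gave 74.2% (67.1 to 80.4) of 178 Trbv UMIs in the control members and 60.5% (54.5 to 66.3) of 281 in the control Klrb1c-negative cells. In the cKO members they gave 4 of only 11 Trbv UMIs, against 59.7% (55.1 to 64.1) of 471 in the cKO Klrb1c-negative cells.

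Next to control Klrb1c-negative cells, the control members carried more of several Ly49 genes, a family of inhibitory and activating NK receptors, and less of S1pr1, Tcf7, Slamf6, Cd4 and Tnfrsf4. Klra9 was at 458 CPM in the control members and 261 CPM in the control Klrb1c-negative cells, a ratio of 1.75 (1.66 to 1.85), and Klra7 at 111 and 63.9 CPM, a ratio of 1.73 (1.55 to 1.93). In depth-matched cells the same ratios were 2.14 (1.97 to 2.33) for Klra9 and 2.87 (2.41 to 3.43) for Klra7. The size rule asked for a ratio of 1.5 or more either way, for 20 CPM in whichever population was higher and for an interval that leaves out 1. Of 5511 genes reaching 20 CPM in either population, 16 were higher in the control members by this rule (0.29%) and 75 were lower (1.36%), 1.65% in all. In depth-matched cells 57 of 5615 were higher (1.02%) and 95 lower (1.69%), 2.71% in all. With mitochondrial and ribosomal protein genes left out of the totals, 28.1% of the genes past the rule were higher, against 17.6% with them.

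Of the 7 Ly49 genes that reached 20 CPM, 3 were higher in the control members over all depths and all 7 in depth-matched cells, with a median log2 ratio of 0.53 and 0.82, against 0.02 and 0.00 over all genes. Klra5, which met the rule at both depth settings, stood at 267 CPM in depth-matched control members and 168 CPM in Klrb1c-negative cells. Klra1 was at 229 and 134 CPM there, Klra3 at 126 and 72.6 CPM, Klra4 at 50.1 and 27.2 CPM, and Klra6 at 94.5 and 53.6 CPM, where each pair gives the control members and then the Klrb1c-negative cells. These 4 met the rule only in the depth-matched cells, where Klra3 had a ratio of 1.74 (1.48 to 2.04), against 1.27 (1.14 to 1.41) over all depths. Klrk1, which encodes the activating receptor NKG2D, was at 476 CPM in depth-matched control members and 333 CPM in Klrb1c-negative cells and missed the rule with a ratio of 1.43 (1.32 to 1.55). Itga1, the alpha chain of a collagen-binding integrin of tissue-resident lymphocytes, gave a ratio of 1.07 (0.980 to 1.17) over all depths and 0.936 (0.823 to 1.06) in depth-matched cells. Of the 4 marker genes other than Klrb1c, Klra9 thus met the rule at both depth settings, Klra3 only in depth-matched cells, and Klrk1 and Itga1 at neither. With cells thinned to 1500 UMIs, Klra3 had a UMI in 8.96% (7.07 to 11.1) of control members and 8.38% (7.16 to 9.73) of control Klrb1c-negative cells. In the same order, Klra7 had a UMI in 9.83% (7.86 to 12.1) and 7.58% (6.42 to 8.87). Klra1 had one in 17.5% (15.0 to 20.3) and 15.9% (14.3 to 17.6), so the intervals of these 3 genes overlapped. Klra9 stood at 35.9% (32.6 to 39.4) and 25.2% (23.3 to 27.3). Klra5 stood at 21.6% (18.8 to 24.7) and 16.8% (15.1 to 18.6).

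**Figure D2:**
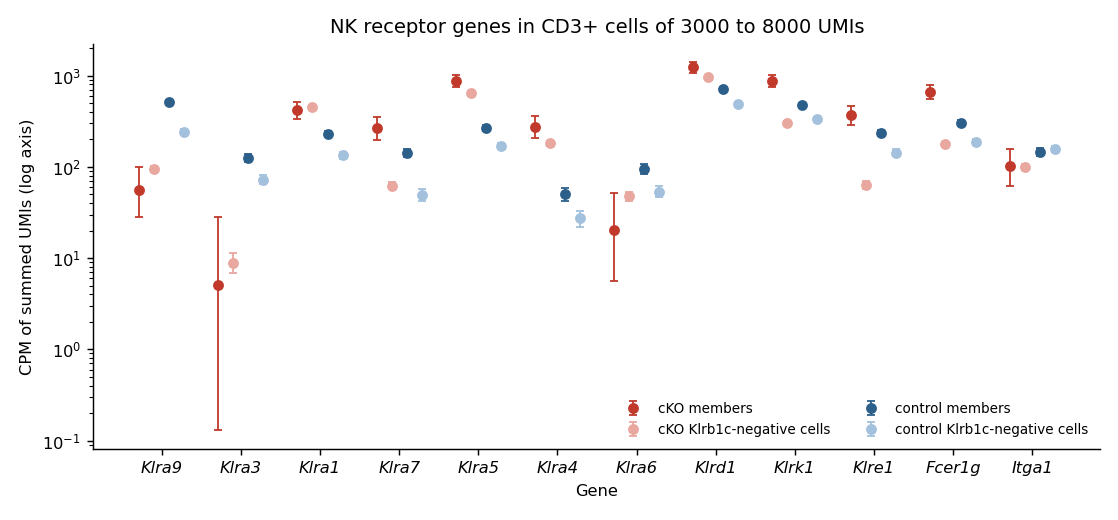
Levels in CPM (log axis) of NK receptor and marker genes in members and Klrb1c-negative cells of the cKO and control libraries. Only cells of 3000 to 8000 UMIs are used, members are the Klrb1c+ T cells and bars are exact Poisson 95% intervals. In the control Klrb1c-negative cells Klra9 lies at 242 CPM and Klra5 at 168 CPM.

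Among the other receptors, none of 12 genes of the NKR-P1, NKG2 and related list met the rule over all depths, against 1.65% of all tested genes. The median log2 ratio of the list was 0.26. In depth-matched cells 3 of 13 were higher in the control members, against 1.02% of all tested genes, with a median of 0.51. Those 3 were Klre1, a partner chain of inhibitory lectin receptors, at 234 CPM in the members and 143 CPM in Klrb1c-negative cells, Klrc2 at 144 and 95.5 CPM, and Klrb1f, another NKR-P1 gene, at 21.0 and 10.6 CPM. Klrd1, the CD94 chain that pairs with NKG2 proteins, missed it with a depth-matched ratio of 1.47 (1.38 to 1.57). Styk1, a receptor-like kinase, was higher in the members both over all depths, with a ratio of 1.59 (1.42 to 1.77), and in depth-matched cells, with a ratio of 1.60 (1.35 to 1.90). So were the glucose transporter gene Slc2a3, with depth-matched levels of 54.0 and 32.7 CPM, the small GTPase gene Gem, with 161 and 102 CPM, and Egr3, a transcription factor induced by antigen receptor signals, with 27.3 and 14.5 CPM. Cd7, a surface protein of T and NK cells, Fcer1g, an adaptor with an activating motif, and Gzmb, which encodes granzyme B, met the rule only in depth-matched cells, with ratios of 1.52 (1.42 to 1.63), 1.64 (1.48 to 1.81) and 1.53 (1.41 to 1.66).

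Il2rb, the shared receptor chain for IL-2 and IL-15, gave 590.4 CPM in the control members and 439 CPM in the control Klrb1c-negative cells, a ratio of 1.35 (1.29 to 1.41) that missed the rule. Tbx21 had a ratio of 1.20 (1.07 to 1.33), Zbtb16, which encodes PLZF, 1.17 (1.01 to 1.36), and Ets1 1.05 (1.0 to 1.09), and none of the 3 met the rule in depth-matched cells either. Of the 20 iNKT1 markers, none was higher and 1 was lower over all depths, against 0.29% and 1.36% of all tested genes. That one was Ccl5, a chemokine of effector lymphocytes, at 656 CPM in the members and 1059 CPM in the Klrb1c-negative cells, and its depth-matched ratio of 0.726 (0.690 to 0.765) missed the rule. Ccl4, another chemokine, went both ways, with a ratio of 0.667 (0.562 to 0.786) over all depths and 2.73 (2.09 to 3.61) in depth-matched cells.

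Of the genes that were lower in the control members, S1pr1, the sphingosine phosphate receptor that lets T cells leave the thymus, was at 8.88 CPM in depth-matched control members and 36.4 CPM in Klrb1c-negative cells, a ratio of 0.248 (0.152 to 0.375). Tcf7, which encodes the transcription factor TCF-1, was at 43.7 and 86.6 CPM, with a ratio of 0.506 (0.407 to 0.623), and Slamf6, a homotypic receptor used in iNKT cell selection, at 10.3 and 42.5 CPM, with a ratio of 0.246 (0.157 to 0.362). Cd4 was at 24.9 and 56.7 CPM, and Tnfrsf4, which encodes the costimulatory receptor OX40, at 1.07 and 36.7 CPM. All 5 met the rule both over all depths and in depth-matched cells, as did Plac8, with a depth-matched ratio of 0.456 (0.361 to 0.567). The integrin genes Itgb1 and Itga4 and the transcription factor gene Rora were lower only in depth-matched members, with ratios of 0.630, 0.637 and 0.583, and so was Gzma, which encodes granzyme A, with 0.565.

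Of the 14 egress and migration genes, 8 reached 20 CPM and 3 of these were lower in the control members, with a median log2 ratio of -0.27, and 3 of 11 iNKT2 and precursor markers were lower, with a median of -0.15. No integrin, cytotoxic granule, survival or cytokine receptor gene of the lists met the rule over all depths. Of all tested genes 1.65% met it there and 1.36% were lower, so few calls would be found in lists of this size at that share. Markers of other cells moved with the same comparison. All 4 erythroid markers that reached 20 CPM were lower in the members, at 0.810 CPM together in the control members and 509 CPM in the Klrb1c-negative cells. The 5 B cell markers reaching 20 CPM had 1 higher and 4 lower, and the list summed to 2554 CPM in the control members and 5125 CPM in the Klrb1c-negative cells, and to 168 and 1584 CPM in depth-matched cells. Of 5 myeloid and dendritic markers 4 were lower, with sums of 274 CPM in the control members and 765 CPM in the Klrb1c-negative cells. Of the regulatory T cell markers, 1 of 3 was lower over all depths and 2 of 4 in depth-matched cells, with median log2 ratios of -0.31 and -1.27, and sums of 550 CPM in depth-matched control members and 564 CPM in depth-matched Klrb1c-negative cells. Cycling markers summed to 107 CPM in the control members and 205 CPM in the Klrb1c-negative cells. The part of these cells in the lower genes was not tested.

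The difference between control members and Klrb1c-negative cells could be followed through the number of Klrb1c UMIs in depth-matched control cells, of which 681 had 0, 406 had 1, 222 had 2, 138 had 3 and 90 had 4 or more. Klra9 stood at 242, 397, 488, 561 and 523 CPM, in that order. Klra7 stood at 49.4, 93.2, 103, 200.1 and 145 CPM. Both receptors were already higher in cells with 1 Klrb1c UMI, which lie outside the gate, than in cells with none. Slamf6 stood at 42.5, 11.8, 11, 9.10 and 10.5 CPM, and S1pr1 at 36.4, 14.7, 11.7, 5.69 and 6.97 CPM. Tcf7 stood at 86.6, 56.7, 44.8, 39.8 and 47.1 CPM. These 3 were lower with a single Klrb1c UMI, and Slamf6 then stayed between 9.10 and 11.8 CPM. Il2rb stood at 475, 548, 592, 671 and 673 CPM, while Ets1 ranged from 533 to 595 CPM and Zbtb16 from 42.5 to 55.0 CPM over the 5 classes with no single direction.

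**Figure D3:**
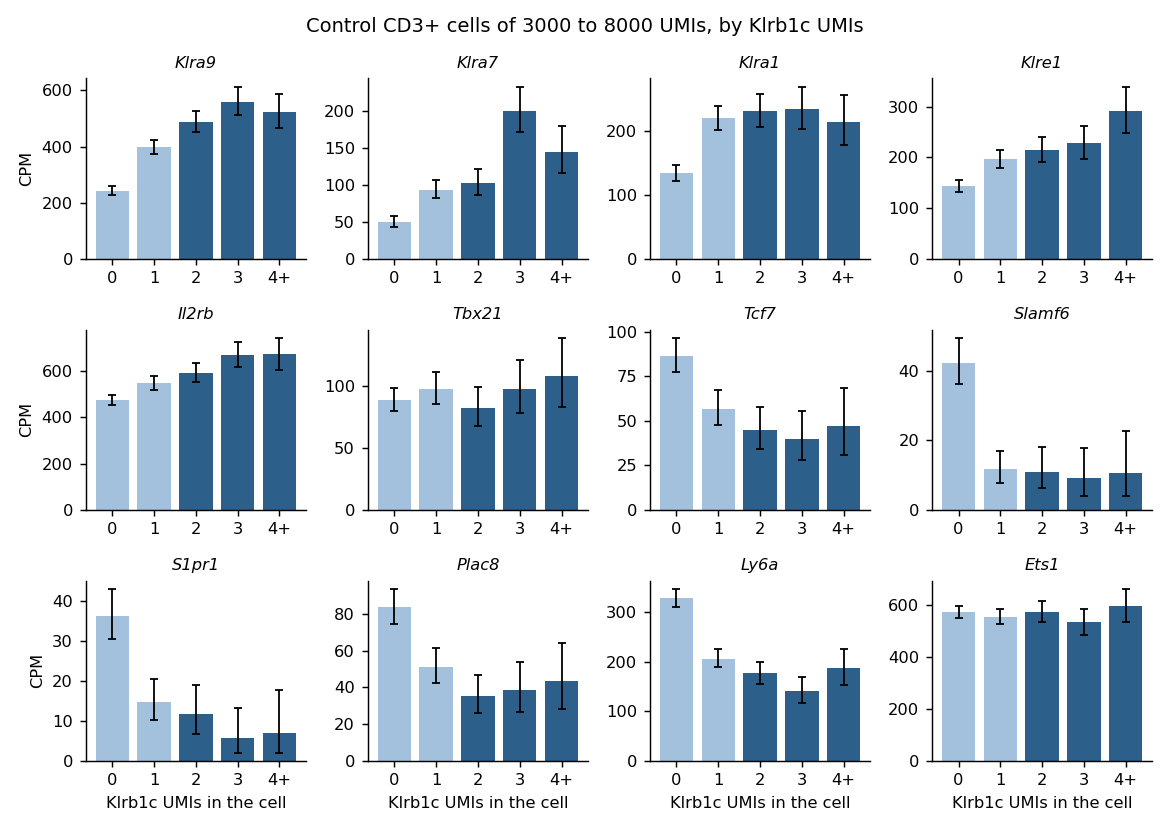
Levels in CPM of named genes (y axis) by the number of Klrb1c UMIs in the cell (x axis, 0 to 4 or more) in control CD3+ cells of 3000 to 8000 UMIs, with exact Poisson 95% intervals. Klra9 climbs from 242 CPM at 0 to 561 CPM at 3 Klrb1c UMIs, and Slamf6 drops from 42.5 CPM to 11.8 CPM at 1.

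Ly49 genes were also counted per cell in depth-matched cells. No Ly49 UMI was seen in 9.68% (2.04 to 25.8) of 31 cKO members and 15.6% (12.3 to 19.2) of 450 control members. The same held for 21.0% (18.8 to 23.4) of cKO and 35.2% (31.7 to 39.0) of control Klrb1c-negative cells. At least 4 Ly49 genes were seen in 19.4% (7.45 to 37.5) of cKO members and 22.9% (19.1 to 27.1) of control members. The shares were 26.0% (23.6 to 28.6) of cKO and 11.9% (9.56 to 14.6) of control Klrb1c-negative cells. Summed over the family the level was 1910 CPM in the cKO members and 1454 CPM in the control members. Detection of one receptor went with detection of another in the 450 control members: Klra7 had a UMI in 30.3% (24.9 to 36.2) of the 267 cells with Klra9 and in 12.0% (7.69 to 17.6) of the 183 without it. For Klra5, which shares no 50-base stretch with Klra9, the shares were 34.5% (28.8 to 40.5) and 19.7% (14.2 to 26.2). Median depth was 6498 UMIs with Klra9 and 6372 UMIs without it.

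Ets1, the targeted gene, was at 204 CPM (162 to 254) in the cKO members and 545 CPM (527 to 564) in the control members, a ratio of 0.377 (0.296 to 0.467). With cells thinned to 1500 UMIs it had a UMI in 20.4% of cKO members and 55.0% of control members. Against the cKO Klrb1c-negative cells, which held 168 CPM, the ratio of 1.22 (0.958 to 1.51) missed the rule. A 3′ count does not show whether a transcript carries the deletion.

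Between the members of the genotypes, a larger share of genes met the rule: of 6227 genes reaching 20 CPM, 1203 were higher in the cKO members (19.3%) and 389 were lower (6.25%), 25.6% in all, with a median log2 ratio of 0.28. In depth-matched cells 1101 of 6579 were higher (16.7%) and 305 lower (4.64%), 21.4% in all. Of the genes past the rule, 75.6% were higher, and this split depended on the scaling: it was 51.3% with mitochondrial and ribosomal protein genes left out of the totals and 53.0% with median-ratio scaling, where the medians of all genes were 0.03 and 0.06. Members of both genotypes were of like depth. The comparison uses the same control members as the one before, so the 2 are not independent.

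The Ly49 receptors split in the cKO members. Klra9 was at 119.9 CPM in the cKO members and 458 CPM in the control members, with a ratio of 0.264 (0.192 to 0.349) over all depths and 0.113 (0.0540 to 0.195) in depth-matched cells. Klra3 was at 15.3 CPM in the cKO members and 101 CPM in the control members, with a ratio of 0.164 (0.0555 to 0.332). The remaining family members that met the rule went the other way. Klra5 stood at 1020 CPM in the cKO members and 249.6 CPM in the control members, with a ratio of 4.09 (3.65 to 4.57), Klra4 at 265 and 44.5 CPM, with a ratio of 5.97 (4.71 to 7.49), Klra7 at 283 and 111 CPM and Klra1 at 434 and 206 CPM. In all, 4 of 7 were higher and 2 lower, against 19.3% and 6.25% of all tested genes. The counts of 4 and 2 held under both other scalings. Klra6 joined the lower ones in depth-matched cells, with a ratio of 0.243 (0.0585 to 0.560). Thinned to 1500 UMIs, Klra9 had a UMI in 8.16% of cKO members and 35.9% of control members, and in 11% of cKO and 25.2% of control Klrb1c-negative cells. Other Ly49 genes also differed between the Klrb1c-negative cells of the 2 libraries. Klra5 had a UMI in 33.9% of the cKO and 16.8% of the control cells, Klra1 in 38.3% and 15.9%, and Klra3 in 1.37% and 8.38%. The directions for these 4 genes were those seen in the members. Klra7 was not higher there, at 6.12% of cKO and 7.58% of control cells.

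Of 16 other lectin and related receptor genes, 12 were higher in the cKO members and none lower, with a median log2 ratio of 0.83. All tested genes gave 19.3% higher and 6.25% lower. Under the 2 other scalings this list gave 7 higher and 2 lower with mitochondrial and ribosomal protein genes left out, and 7 higher and 1 lower with median-ratio scaling. Klrb1a, another NKR-P1 gene, was at 158 CPM in the cKO members and 6.80 CPM in the control members, a ratio of 23.2 (15.5 to 35.3), and Klrb1b, an inhibitory gene of the family, at 28.1 and 4.54 CPM. Klrk1 was at 668 and 424 CPM, a ratio of 1.58 (1.38 to 1.79) that missed the rule under both other scalings, and Klrc1, which encodes the inhibitory NKG2A chain, at 204 and 72.7 CPM. Klrb1, counted as a gene of its own, had UMIs in 4 of 49 cKO members and 1 of 842 control members.

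Several adaptor and cytotoxic genes of NK cells were higher in the cKO members. Tyrobp, which encodes the activating adaptor DAP12, was at 413 CPM in the cKO members and 32.9 CPM in the control members, a ratio of 12.6 (10.2 to 15.5), and of 5.20 (3.54 to 7.40) in depth-matched cells. Fcer1g was at 653 and 252 CPM, and Sh2d1b1, the EAT-2 adaptor, at 20.4 and 0.324 CPM. Prf1, which encodes the pore-forming perforin, was at 214 and 57.8 CPM, and Gzmb at 1051 and 535 CPM. Gzma had a ratio of 5.27 (4.71 to 5.87) over all depths and 1.98 (1.52 to 2.53) in depth-matched cells, but 3 cKO members held 199, 158 and 67 of the 429 UMIs, and the last of these held 67 of the 71 in depth-matched cells. The direction of Gzma turned round, to log2 ratios of -4.52 and -2.41, with only the cKO members of at least 2 Fxyd7 UMIs or only those below the Fxyd7, Eomes and Trdc thresholds described further on. Of the cytotoxic list, 7 of 12 genes were higher and none lower, with a median log2 ratio of 0.90, and of 15 adaptors and signalling partners 7 were higher and none lower, with a median of 0.58. All tested genes gave 19.3% higher and 6.25% lower. With mitochondrial and ribosomal protein genes left out, the adaptor list gave 7 higher and 1 lower, with a median of 0.36. With median-ratio scaling it gave 5 higher and 1 lower of 13, with a median of 0.11. The cytotoxic list had medians of 0.61 and 0.70 there. Ccl5 was at 4033 CPM in the cKO members and 656 CPM in the control members, a ratio of 6.14 (5.79 to 6.51).

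Eomes, a T-box factor of NK cells and effector T cells that is closely related to T-bet, was at 173 CPM (135 to 220) in the cKO members and 1.30 CPM in the control members, a ratio of 127 (64.2 to 323). Cells with an Eomes UMI were 19 of 49 cKO members and 7 of 842 control members. Tbx21 had a ratio of 1.46 (1.07 to 1.92), Zbtb16 0.803 (0.441 to 1.29) and Il2rb 1.48 (1.32 to 1.65), and none of the 3 met the rule. All 7 NK cell markers that reached 20 CPM were higher in the cKO members, against 19.3% of all tested genes. The list of 9, with Ncr1 set to 0 by the gate, summed to 2663 CPM in the cKO members and 570 CPM in the control members. Markers of gamma-delta T cells, 2 of 4 of which were higher, summed to 719 CPM in the cKO members and 406 CPM in the control members. Cycling markers summed to 569 and 107 CPM, and to 194 and 20.2 CPM in depth-matched cells, cKO members before control members in each pair. Few cells carried these cycling sums: Mki67 had a UMI in 1 of 49 cKO members and 22 of 842 control members, 1 cKO member held 19 of the 20 Birc5 UMIs, and 7 of the 9 markers were at 0 in depth-matched cKO members. B cell markers summed to 135 CPM in the cKO members and 2554 CPM in the control members, and to 112 and 168 CPM in depth-matched cells. Gut epithelium markers summed to 56.1 CPM in the cKO members and 0.648 CPM in the control members. The part of these cells in the results was not tested.

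The egress and migration genes had the highest median of the gene lists between the genotypes: 7 of 11 egress and migration genes were higher in the cKO members and 1 lower, with a median log2 ratio of 1.89, the same counts under both other scalings. All tested genes gave 19.3% higher and 6.25% lower. S1pr5, the sphingosine phosphate receptor of NK and effector cells, was at 79.1 CPM in the cKO members and 1.62 CPM in the control members, a ratio of 47.2 (23.3 to 112), and S1pr1 at 71.4 and 8.26 CPM, a ratio of 8.72 (5.25 to 14). The chemokine receptor genes Cx3cr1, at 76.5 and 2.27 CPM, and Cxcr4, at 53.6 and 14.7 CPM, were higher too. Among integrins, Itga4 was at 293 and 49.7 CPM and its partner chain Itgb1 at 651 and 145 CPM. Itgax, the CD11c chain, was at 128 CPM in the cKO members and 1.13 CPM in the control members. Itga1 went the other way, with a ratio of 0.509 (0.325 to 0.738), and missed the rule in depth-matched cells, with 0.716 (0.423 to 1.09).

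The galectin genes Lgals1 and Lgals3, which encode sugar-binding proteins of activated lymphocytes, were at 2957 and 1066 CPM in the cKO members, against 367 and 107 CPM in the control members. Of their list of 19 cytoskeleton, galectin, S100 and annexin genes, 12 were higher and 4 lower, with a median log2 ratio of 1.44. This list did not single out the members within the cKO library. Against the cKO Klrb1c-negative cells, 1 of its 18 tested genes was higher and 1 lower, with a median log2 ratio of -0.025. Of all tested genes 6.23% were higher and 3.35% lower there. Zeb2, a transcriptional repressor of terminally differentiated effector cells, had a ratio of 16.8 (10.9 to 26.0), Rora 3.14 (2.19 to 4.32) and Tcf7 2.27 (1.56 to 3.14), and 10 of 27 transcription factor genes were higher and 4 lower. Of all tested genes, 19.3% were higher in the cKO members than in the control members and 6.25% lower. The transcription factor list gave 6 higher and 4 lower under both other scalings, of 29 and 27 tested genes. Cytokine receptor and feedback genes included Socs2, at 176 CPM in the cKO members and 29.2 CPM in the control members, Tgfbr1, at 58.7 and 16.4 CPM, and Ifngr1, the ligand-binding chain of the interferon gamma receptor, at 1102 and 335 CPM. Of the iNKT1 markers, 11 of 20 were higher and 1 lower, with a median of 0.68, and 7 were higher and 2 lower under both other scalings. No iNKT17 marker reached 20 CPM, and that list summed to 5.10 CPM in the cKO members and 23.8 CPM in the control members.

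Genes close to nothing in one genotype's members had the largest ratios. Fxyd7 and Fxyd1, which encode small regulators of the sodium pump and lie next to each other on chromosome 7 (31042513 to 31051467 and 31051678 to 31057199, minus strand, mm10), were at 1043 CPM and 467 CPM in the cKO members. In the control members Fxyd7 was at 0.162 CPM and Fxyd1 at 0. Set against a floor of 3 UMIs over the control members, Fxyd1 was at least 961-fold higher in the cKO members and Lgi4, which encodes a secreted leucine-rich protein, at least 136-fold. Fxyd7 and Fxyd1 did not single out the members within the cKO library, where the Klrb1c-negative cells held 1054 and 416 CPM. Podnl1 and Atp8a2 were at 0 in the cKO members and at 74.3 and 61.9 CPM in the control members, at least 9.71-fold and at least 8.08-fold lower.

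Of the genes that were lower in the cKO members, Izumo1r, which encodes the folate receptor 4, was at 12.8 CPM in the cKO members and 195 CPM in the control members, a ratio of 0.0720 (0.0212 to 0.153), and had a UMI in 4 of 49 cKO members and 456 of 842 control members. Gmfg, a regulator of actin branching, was at 12.8 and 295 CPM, a ratio of 0.0476 (0.0140 to 0.101). Dgka, a kinase that dampens receptor signals, was at 5.10 and 58.3 CPM, and Gpr183, the oxysterol receptor that guides lymphocytes, at 10.2 and 92.2 CPM. Cd5, an inhibitory partner of the T cell receptor, had a ratio of 0.285 (0.150 to 0.464), Cd4 0.276 (0.0266 to 0.816) and Ltb, a lymphotoxin chain, 0.317 (0.262 to 0.379). Id3, a target of T cell receptor signals, was at 0 in the cKO members and 31.7 CPM in the control members, at least 4.15-fold lower. Of 16 immediate early genes, 8 were lower and 1 higher, with a median log2 ratio of -0.69. All tested genes gave 6.25% lower and 19.3% higher. Among them Junb was at 656 CPM in the cKO members and 1485 CPM in the control members, and Dusp1 at 362 and 861 CPM. Under the other scalings 13 of 17 and 12 of 16 genes of the list were lower. Lower calls over all genes rose as well, from 389 to 769 and 643 in the same order.

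**Figure D4:**
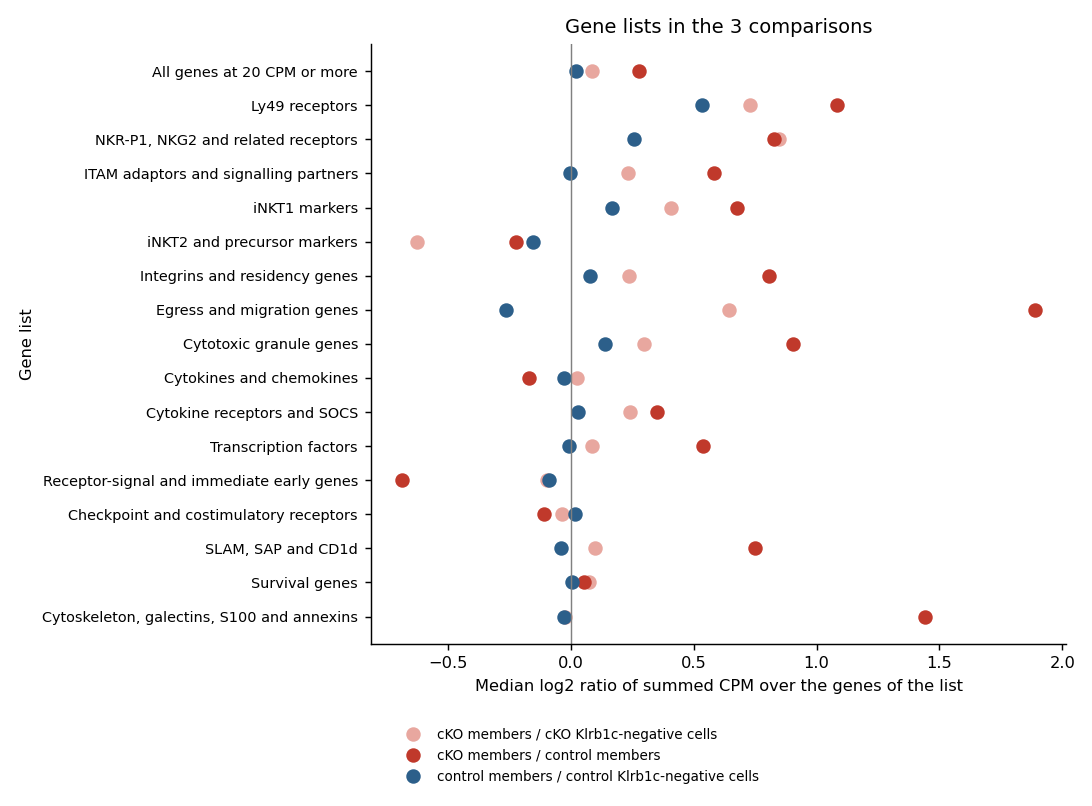
Median log2 ratio of the genes of each list that reached 20 CPM (x axis) in the 3 comparisons, where members are the Klrb1c+ T cells and the lists run down the page. The egress and migration list lies at 1.89 for cKO members against control members, and the immediate early list at -0.69.

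Within the cKO library, 393 of 6304 genes reaching 20 CPM were higher in the members than in the Klrb1c-negative cells (6.23%) and 211 were lower (3.35%), 9.58% in all, with a median log2 ratio of 0.09. In depth-matched cells 348 of 6609 were higher (5.27%) and 161 lower (2.44%), 7.7% in all. This comparison shares its members with the one between genotypes. Klra7 was at 283 CPM in the cKO members and 69.0 CPM in the cKO Klrb1c-negative cells, a ratio of 4.12 (3.34 to 4.99), and Klre1 at 352 and 53.8 CPM, a ratio of 6.56 (5.42 to 7.85). Tyrobp had a ratio of 22.8 (18.6 to 27.8), Prf1 of 6.81 (5.31 to 8.57), Eomes of 21.6 (15.7 to 29.2) and Crtam, an adhesion receptor of cytotoxic lymphocytes, of 14.9 (8.32 to 25.1). Klrk1 was at 668 CPM in the cKO members and 276 CPM in the Klrb1c-negative cells. Of the lectin receptor list 10 of 16 were higher and none lower, and of the Ly49 list 4 of 6 were higher and none lower, with 2 of 6 in depth-matched cells. All 7 NK cell markers that reached 20 CPM were higher as well, and the list summed to 2663 CPM in the cKO members and 475 CPM in the cKO Klrb1c-negative cells. NK cell content was not tested.

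Klra9 and Klra3 did not meet the rule within the cKO library, with ratios of 1.40 (1.01 to 1.86) and 1.88 (0.627 to 3.89), and the depth-matched ratio of Klra9 was 0.616 (0.293 to 1.06). Neither did Itga1, with 0.956 (0.610 to 1.38). Lower in the cKO members than in the cKO Klrb1c-negative cells were Cd4, with a ratio of 0.211 (0.0204 to 0.615), Slamf6, with 0.278 (0.104 to 0.537), Plac8, with 0.259 (0.137 to 0.421), and Cd5, with 0.322 (0.170 to 0.523). Tnfrsf4 was at 0 in the cKO members and 59.2 CPM in the Klrb1c-negative cells, at least 7.73-fold lower, and the checkpoint receptor gene Ctla4 at 0 and 28.3 CPM, at least 3.69-fold lower. Of 11 iNKT2 and precursor markers 5 were lower and none higher, against 3.35% and 6.23% of all tested genes. The median log2 ratio of these markers was -0.63. Tnfrsf4, Cd4, Slamf6 and Plac8 thus met the rule as lower in the members of both libraries. Gut epithelium markers summed to 56.1 CPM in the cKO members and 1176 CPM in the cKO Klrb1c-negative cells, and B cell markers to 135 and 1183 CPM, and their part in the lower genes was not tested.

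Sums over 49 cells hide that the cKO members were a mixture. Fxyd7 reached 2 UMIs in 20 of 49 (40.8%, 27.0 to 55.8), Eomes reached 1 UMI in 19 (38.8%, 25.2 to 53.8) and Trdc, the constant part of the T cell receptor delta chain, reached 2 UMIs in 10 (20.4%, 10.2 to 34.3), with these thresholds set after the values were seen. Of 842 control members, 0 reached 2 Fxyd7 UMIs, which allows a share of up to 0.356%, and 7 reached each of the other thresholds. In the cKO library Fxyd7 was as frequent among Klrb1c-negative cells, at 38.4% of 2146, while Eomes marked 2.84% and Trdc 2.28% of them. Fxyd7 and Eomes met in 2 members, Fxyd7 and Trdc in none, and Eomes and Trdc in 9. A Trdc signal without a Trac UMI was seen in 7 members. Trdc was not confined to CD3+ cells. At least 1 Trdc UMI was seen in 24.5% of the cKO members, 28.3% of 53 cKO NK cells and 23.8% of 105 control NK cells. NK cells here are cells with an Ncr1 UMI and no CD3 UMI. Trdc alone thus does not tell gamma-delta T cells from NK cells here. The rest, 11 members, reached none of the 3 thresholds. Among the 15 cKO members with at least 3 Klrb1c UMIs, 10 had Eomes and 4 had Fxyd7.

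The 3 classes, described here with no test, differed in several of the NK genes that were higher in the cKO members as a whole. The 18 members with Eomes or Trdc and fewer than 2 Fxyd7 UMIs held Tyrobp at 926 CPM, Fcer1g at 1363 CPM, Prf1 at 488 CPM and Klra7 at 466 CPM. The 20 members with Fxyd7 held Tyrobp at 169.5 CPM, Fcer1g at 133 CPM, Prf1 at 66.6 CPM and Klra7 at 103 CPM. All 28 Tyrobp UMIs, all 11 Prf1 UMIs and 10 of the 17 Klra7 UMIs of these 20 lay in the 2 cells that also held Eomes, so the other 18 had no UMI of Tyrobp or Prf1. Lgals3 was at 459 CPM in the members with Eomes or Trdc, 1259 CPM in those with Fxyd7 and 1640 CPM in the 11 with neither. Trac had a UMI in 10 of the 18, in 20 of the 20 and in 11 of the 11, in the same order. Klra9 was at 197, 60.5 and 112 CPM, below the 458 CPM of the control members in each class. Ets1 was at 153 CPM (94.7 to 234), 260.4 CPM (188 to 351) and 179 CPM (102 to 289.9), below the 545 CPM of the control members in each class.

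**Figure D5:**
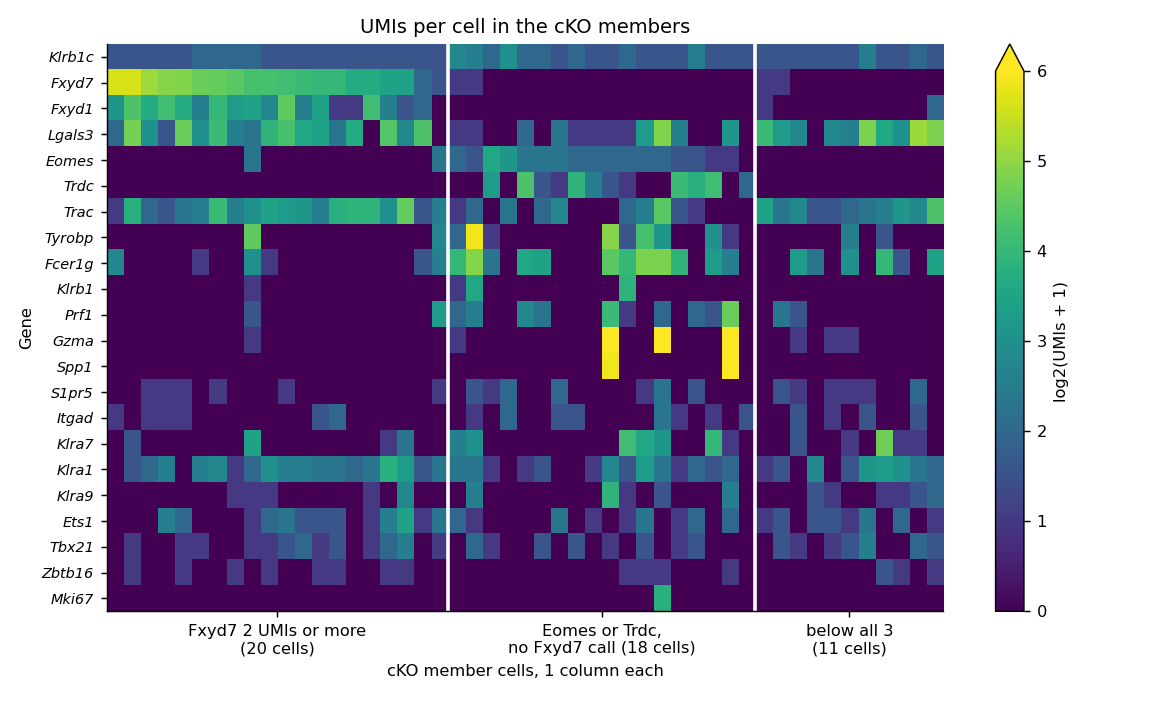
UMIs of named genes in each of the 49 cKO members, 1 column per cell (x axis) and 1 gene per row, with cells ordered by class. Fxyd7 fills 1 set of cells and Eomes and Trdc another, with 2 cells holding both Eomes and at least 2 Fxyd7 UMIs. Further cells with Eomes hold 1 Fxyd7 UMI, and none holds both Fxyd7 and Trdc.

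A few cells carried some of the cKO sums. Spp1, which encodes osteopontin, had UMIs in 2 cKO members, 78 in one and 58 in the other, and in no control member. The histone gene Hist1h2ae had 117 of its 120 UMIs in a member of 20591 UMIs, which also held the only Mki67 signal. Without the 5% of cells with the most UMIs, Hist1h2ae had 3 UMIs left in the cKO members and a log2 ratio of -0.54 against the cKO Klrb1c-negative cells. In the control members, Jchain had 256 CPM and 2 cells of at least 10 Jchain UMIs.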

How the data were processed

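The authors sorted YFP+ thymus cells and made 10x 3′ libraries, per the labels' protocols, and used Cell Ranger 2.1.1 and the mm10 build, per the submitters' processing notes. The deposited values are raw UMI counts of 32285 features per barcode, and the matrix headers name software version 3.0.0, a difference that was not resolved. The gene annotation is not given in the sources used here.

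Cells of at least 500 genes and at most 10% mitochondrial UMIs were kept and gated as described above. No doublet caller was run. UMIs were summed per population and divided by its total to give CPM with exact Poisson intervals. Ratios have exact conditional binomial 95% intervals, with 0.5 UMIs added to each sum for the ratio itself. Intervals of shares are Clopper-Pearson, and 3 counts served as the floor where none was seen. With 1 library per genotype no test was made. The ratio calculation was tested on simulated counts. The members, gene lists and thresholds were chosen with earlier results of these data known.

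Named whatever their values were Ets1, Tbx21, Zbtb16, Eomes, Il2rb, Klrb1c, Klra9, Klra3, Klrk1 and Itga1. Also named were, per comparison, genes among the 10 highest and 10 lowest past the size rule at 50 CPM or more, without gate genes, receptor segments, sex-linked or uncharacterised genes and those of mitochondria or ribosomal proteins, and up to 4 genes per list with the largest ratios. Some genes the rule names are not reported here, and genes followed beyond it, such as those of the Klrb1c UMI classes and of the cKO member classes, were chosen after their values were seen. Alternatives covered the filters, the gates, depth, scaling and the size rule. Promoter sequences are from RefSeq on GRCm38.p6, and 99.6% of feature IDs matched GENCODE vM21. The work was done in Python 3.11.15 with pandas 2.3.3, scipy 1.17.1, numpy 2.4.6 and matplotlib 3.10.9.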

Additional observations from a re-analysis of the deposited data

Results flagged for a closer look

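For 3 named genes, members stood on opposite sides of the Klrb1c-negative cells in the 2 libraries, past the size rule in each. Ccl5 had a log2 ratio of members over Klrb1c-negative cells of 2.12 in the cKO library and -0.69 in the control library. Ccl3 had 1.93 in the cKO library and -1.83 in the control library. Cxcr4 had 0.93 in the cKO library and -0.63 in the control library. With 1 library per genotype the difference was not tested for any of the 3. In depth-matched cells Ccl5 and Cxcr4 were again higher in the cKO members than in the cKO Klrb1c-negative cells, and Ccl3 was at 0 in the cKO members. In depth-matched control cells Cxcr4 was lower in the members, with a ratio of 0.623, while Ccl5 and Ccl3 missed the rule, with ratios of 0.726 and 0.506. At matched depth the members thus stood past the rule on opposite sides for Cxcr4 but not for Ccl5 or Ccl3. NK cell markers, which summed to 2663 CPM in the cKO members and 475 CPM in the cKO Klrb1c-negative cells, moved with these ratios in the cKO library, and their part was not tested.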

How the results depend on the processing

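No paired analysis was possible because each genotype has 1 library and the labels carry no shared replicate numbers. Of 87 recomputed shares and counts of genes past the size rule, 59 stayed within their interval or within 1.5 times and 28 moved. The reported shares of CD3+ cells are 1.36% in the cKO library and 11.8% in the control library. The reported gene counts are 91 for control members against control Klrb1c-negative cells, 1592 for cKO members against control members and 604 for cKO members against cKO Klrb1c-negative cells, and counts below keep this order of comparisons.

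The control share was 19.8% with at least 1000 genes per cell, 12.6% with at most 5% mitochondrial UMIs, 13.8% with no limit on the interferon genes, 13.1% with at least 3 CD3 UMIs and 20.2% in cells of 3000 to 8000 UMIs. The shares were 7.20% in the cKO library and 26.6% in the control library with at least 1 Klrb1c UMI, 0.417% and 5.82% with at least 3, and 0.299% and 3.27% with cells thinned to 1500 UMIs. The first count was 152 in cells of 3000 to 8000 UMIs, 167 with mitochondrial and ribosomal protein genes left out of the totals and 722 with no CPM minimum. The second was 1048 with at least 3 Klrb1c UMIs and 825 with only the cKO members below the Fxyd7, Eomes and Trdc thresholds, an alternative chosen after seeing the data. The third was 234 with at least 1 Klrb1c UMI. All 3 moved to 267, 741 and 335 with thinned cells, to 139, 2541 and 1354 with every cell weighted equally, and to 34, 912 and 334 with a ratio of at least 2. With a minimum of 50 CPM the first was 38 and the third 361.

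Named genes reversed in 31 cases, given as log2 ratios. For cKO members against control members these were Ccl3 (-0.54) and Gzma (-0.24) with at least 1 Klrb1c UMI, Gzma (-2.70) and Jchain (0.36) with at least 3, and Ccl3 (-1.28) and Jchain (0.15) in cells of 3000 to 8000 UMIs. With only the cKO members of at least 2 Fxyd7 UMIs they were Ccl3 (-1.08), Gzma (-4.52), Klrb1b (-0.61) and Serpinb6b (-0.14), and with only those below the 3 thresholds Cd4 (0.27) and Gzma (-2.41), both chosen after seeing the data. For cKO members against cKO Klrb1c-negative cells they were Ccl3 (-0.16), Cd40lg (0.049), Cxcr4 (-0.11) and Nr4a2 (-0.0073) with at least 1 Klrb1c UMI, Gzma (-3.36) and Hist1h2ae (-1.0) with at least 3, and Lyz1 (0.31) with at least 3 CD3 UMIs. In cells of 3000 to 8000 UMIs they were Ccl4 (1.27), Hist1h2ae (-0.83) and Klra6 (-1.05), with thinned cells Serpinb6b (-0.14), and without the 5% of cells with the most UMIs Hist1h2ae (-0.54). Without the cKO member with the most UMIs, also chosen after seeing the data, they were Cenpf (-0.73) and Hist1h2ae (-1.47). Without cells holding B cell, myeloid or gut UMIs, Cd79a (5.09), Defa30 (0.13), Lyz1 (1.18) and Mzb1 (0.23) reversed, and so did Cd79a (0.63) between control members and control Klrb1c-negative cells, with no UMI of them left in the members, so that the ratio comes from the added 0.5 UMIs. No UMI was left in the cKO members either for Jchain in both its settings, for Klrb1b, or for Lyz1 with at least 3 CD3 UMIs. The same held for Ccl3 in cells of 3000 to 8000 UMIs and with at least 2 Fxyd7 UMIs. The cKO side of these ratios is likewise the added 0.5 UMIs. The cause of the remaining reversals was not tested.

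Depth limits the members themselves. A cell of few UMIs can miss the second Klrb1c UMI, and it can as easily miss a UMI of the genes gated at 0. The 49 cKO members give a smallest nonzero level of 2.55 CPM, so low genes there rest on single UMIs. Free RNA and doublets were not removed.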

Other observations

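CD3+ cells with exactly 1 Klrb1c UMI, which lie outside the gate, numbered 210 in the cKO library and 1061 in the control library. In the cKO library Fxyd7 reached 2 UMIs in 59.5% (52.6 to 66.2) of them, against 40.8% of the members and 38.4% of the Klrb1c-negative cells. Eomes had a UMI in 7.62% (4.42 to 12.1) of them, against 38.8% of the members and 2.84% of the Klrb1c-negative cells. In the control library none of these 1061 cells reached 2 Fxyd7 UMIs, and Eomes had a UMI in 1.51% (0.864 to 2.44) of them, against 0.831% of the members. Izumo1r had a UMI in 6.19% of the cKO cells with 1 Klrb1c UMI and in 34.3% of such control cells.

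NK cells, taken as cells with an Ncr1 UMI and no CD3 UMI, numbered 53 in the cKO library and 105 in the control library. Tyrobp was at 2587 CPM in the cKO NK cells and 413 CPM in the cKO members, and at 2779 CPM in the control NK cells and 32.9 CPM in the control members. Eomes was at 292 CPM in the cKO NK cells and 173 CPM in the cKO members, and at 254 CPM in the control NK cells and 1.30 CPM in the control members. Klra7 was at 636 CPM in the cKO NK cells and 668 CPM in the control NK cells.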
